A study of Rattus norvegicus with 4 samples.

Results

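Me1, Acly, Gpam, Msmo1, Lss, Hsd17b7, Nsdhl and Cyp51 encode 8 enzymes of fat and sterol synthesis, and their ratios were read on 4 two-colour cDNA arrays of rat liver. They were found by gene symbol in the probe annotation: 15 of the 7688 spots on each array, from 8 clones, each listed under 1 symbol. The array held 5674 clones in all, counting each of 2436 unlisted spots as a clone of its own. All 15 spots held a ratio on all 4 arrays, so no filter on missing values removed an enzyme. Every array set total liver RNA of 1 of 4 female Fischer rats, dosed with ciprofibrate at 50 mg per kg of body weight each day over 60 days, against a pool of total liver RNA from 5 control rats. The drug belongs to the fibrates, which lower blood lipids and act through PPARα, a nuclear receptor of fatty acid metabolism. The labels give no strain, sex or handling for the controls beyond "control rats", and the pool stood on every array, so the spread between control rats is not in the data.

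Per the labels, channel 1 held the dosed liver and channel 2 the controls, with no dye named for either. The channel order makes it likely, no more, that a positive log2 ratio means a higher level in the dosed rats. Were the order reversed on every array, the signs of all values below would turn together. All ratios are log2 and were centred on the median of each array. The arrays correlated positively with each other over spots (r from 0.462 to 0.759), so none ran opposite to the rest. RNA from fewer hepatocytes and less RNA per hepatocyte cannot be told apart in whole liver, and without intensities the liver identity of the samples could not be checked against marker levels. Of 6 tested clones for 5 hepatocyte markers, 2 had a negative ratio past the threshold (Tf at -0.69 and Fgb at -0.49) and none a positive one, with means from -0.69 to -0.22. Of all tested clones, 15.0% were called negative and 13.6% positive. All marker ratios given here are without a correction for slide position. Of 2 red blood cell markers tested, Hbb was at -0.88 and past the threshold, and Alas2, at 0.11, was not. Of 2 leukocyte markers Cd74, at -0.35, passed and Lyz2, at 0.18, did not, and of 3 stellate and endothelial markers Des (0.62) and Acta2 (-0.61) passed in opposite directions and Col1a1 (-0.16) did not. The part of these differences in the results below was not tested.

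Fatty acids are built from cytosolic acetyl-CoA, which ATP citrate lyase (Acly) cleaves from citrate, with NADPH that comes in part from malic enzyme (Me1). The mitochondrial acyltransferase encoded by Gpam then attaches fatty acids to glycerol phosphate, the first step towards triglycerides. Sterol synthesis starts from the same acetyl-CoA. Lanosterol synthase (Lss) closes the sterol rings, Cyp51 removes a methyl group from lanosterol, and Msmo1, Nsdhl and Hsd17b7 act one after another to strip further methyl groups from the ring on the way to cholesterol. In mammals sterol enzymes are classically driven by the transcription factor SREBP-2 and lipogenic ones by SREBP-1c, both commonly together with NF-Y, which binds CCAAT boxes. Me1 is a textbook target of PPARα in rodent liver.

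The genomic stretches just before the annotated starts of the 5 enzymes that passed the threshold are printed to show what lies next to these genes. They were taken from RefSeq on the GRCr8 assembly, read 5′ to 3′ on the strand of the gene, and end where the annotated gene begins. Capitals mark CCAAT and GGGCGG, the core of a GC box bound by Sp1, on either strand (the opposite strand reads ATTGG and CCGCCC). The stretches are chr8:96540245-96540494 (minus strand), chr16:29746863-29747112 (plus), chr20:12118231-12118480 (minus), chr13:84722811-84723004 (minus) and chrX:155817110-155817300 (plus).
Me1: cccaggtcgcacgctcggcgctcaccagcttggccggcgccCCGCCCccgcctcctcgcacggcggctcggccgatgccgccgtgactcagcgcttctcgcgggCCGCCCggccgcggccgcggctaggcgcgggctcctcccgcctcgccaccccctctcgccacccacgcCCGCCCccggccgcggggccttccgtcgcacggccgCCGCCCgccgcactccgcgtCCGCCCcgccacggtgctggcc
Msmo1: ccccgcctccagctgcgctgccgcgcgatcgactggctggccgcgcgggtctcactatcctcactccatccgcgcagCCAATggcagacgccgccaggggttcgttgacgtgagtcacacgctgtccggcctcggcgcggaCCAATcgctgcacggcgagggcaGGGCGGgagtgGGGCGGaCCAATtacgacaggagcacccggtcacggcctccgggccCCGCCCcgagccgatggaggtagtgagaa
Lss: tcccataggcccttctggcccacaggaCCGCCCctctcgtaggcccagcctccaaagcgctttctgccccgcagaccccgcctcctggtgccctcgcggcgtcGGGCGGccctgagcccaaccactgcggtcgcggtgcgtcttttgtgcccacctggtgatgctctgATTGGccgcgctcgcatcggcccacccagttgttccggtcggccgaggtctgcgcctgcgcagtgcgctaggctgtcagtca
Hsd17b7: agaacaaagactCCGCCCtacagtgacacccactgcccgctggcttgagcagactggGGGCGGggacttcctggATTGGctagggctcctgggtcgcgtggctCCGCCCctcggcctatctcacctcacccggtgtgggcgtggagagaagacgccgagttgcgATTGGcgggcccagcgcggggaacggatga
Nsdhl: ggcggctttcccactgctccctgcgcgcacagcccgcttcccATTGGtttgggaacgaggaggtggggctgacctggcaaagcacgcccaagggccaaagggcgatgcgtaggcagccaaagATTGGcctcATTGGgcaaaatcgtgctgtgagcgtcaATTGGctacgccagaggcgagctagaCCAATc

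All 8 genes had a promoter in the table, and the motifs were counted in the 250 bases before each listed start on both strands. These windows reach 56 and 59 bases into the annotated gene for Hsd17b7 and Nsdhl, a part left out of the printed stretches, and 201 and 250 bases into it for Gpam and Acly, whose listed starts lie inside the gene. CCAAT stood in 6 of the 8 windows, against 34.0% of 33469 rat promoters of the same length, and was not found in the windows of Me1 and Cyp51. Nsdhl held 5 matches, Msmo1 and Hsd17b7 held 3 each, and Lss, Acly and Gpam held 1 each. GGGCGG stood in 6 windows as well, against 30.5% of all promoters, with 5 matches in Me1, 3 each in Acly, Msmo1 and Hsd17b7, 2 in Lss and 1 in Cyp51. The windows of the enzymes were 51.2% to 83.2% G and C, against a median of 51.2% over all promoters. A sterol regulatory element spelled TCACNCCAC was found in none of the 8 windows, against 0.974% of all promoters, and neither was a perfect copy of the direct repeat bound by PPARα, against 0.0508%. Enzymes with positive and with negative ratios both carried CCAAT, and the matches are letters in these windows, not measured sites.

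Each of the 8 enzymes had a ratio of 1 sign on all 4 arrays, which held for 52.8% of the 4704 clones tested. The 8 were chosen with earlier results of these data known, so the share is given for scale only. Me1, Acly, Msmo1, Lss and Cyp51 were positive throughout, and Gpam, Hsd17b7 and Nsdhl negative throughout. At an adjusted p under 0.05 (limma's moderated test of the mean ratio against 0, Benjamini-Hochberg over all 4704 clones), 5 of the 8 passed: Me1, Msmo1 and Lss as positive, Hsd17b7 and Nsdhl as negative. Over all clones, unlisted spots included, the same test called 28.6%, with 13.6% positive and 15.0% negative. All 5 ratios were modest in size, from 1.32-fold for Nsdhl to 1.54-fold for Hsd17b7. Acly, Gpam and Cyp51 did not pass. Leaving out replicate 1 left 2 of the 5 calls, Msmo1 and Lss (14.8% of all clones were called there), and leaving out replicate 3 or replicate 4 left none (8.94% and 10.3%), while all 5 held without replicate 2 (37.5%). A fit on 3 arrays has less power, and the means without 1 array ranged from 0.40 to 0.45 for Me1, from 0.40 to 0.61 for Msmo1, from 0.34 to 0.51 for Lss, from -0.45 to -0.30 for Nsdhl and, the widest, from -0.74 to -0.35 for Hsd17b7.

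**Figure D1:**
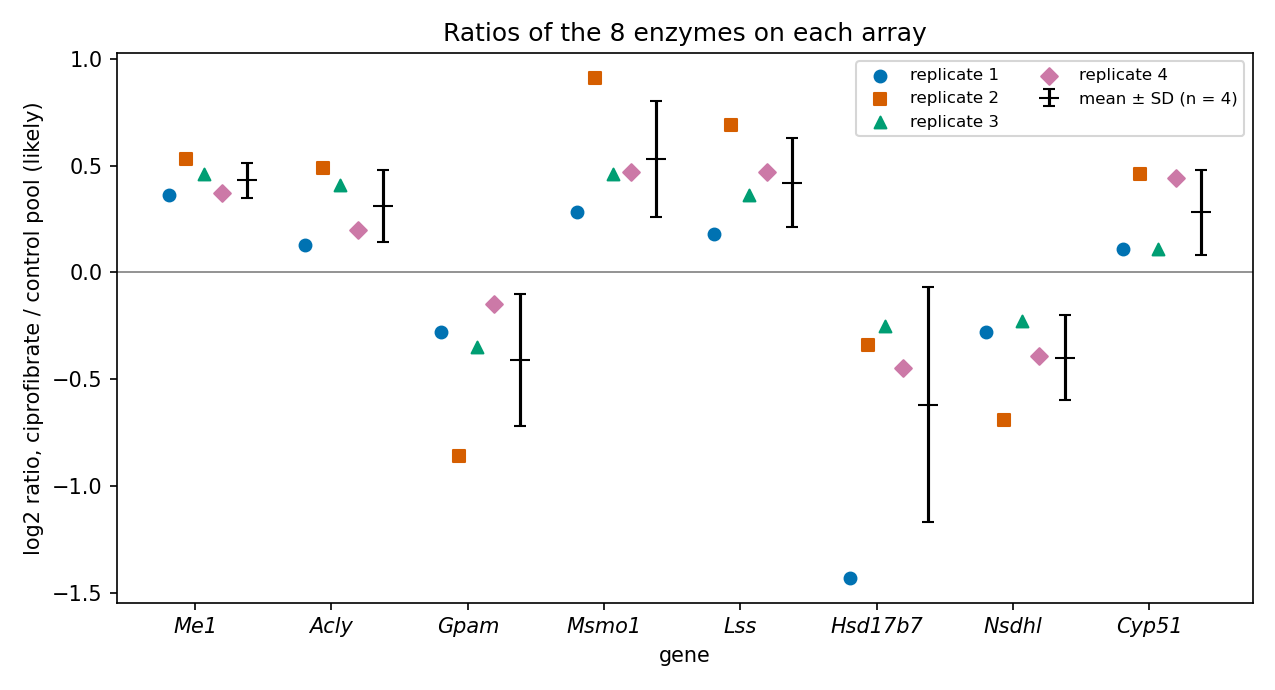
The vertical axis is the centred log2 ratio of ciprofibrate liver over control pool (direction likely, not stated), the horizontal axis the 8 genes; each coloured symbol is 1 array and the black bar is the mean ± SD of 4 arrays. No gene has arrays on both sides of 0, Me1 has the tightest symbols (0.36 to 0.53), and Hsd17b7 on replicate 1 (-1.43) lies far below its other 3 arrays.

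Me1, the cytosolic malic enzyme that makes NADPH, lies at chr8:96429057-96540244 (GRCr8). Its ratios were 0.36, 0.53, 0.46 and 0.37 on replicates 1 to 4, a spread of 0.17 from lowest to highest. All 4 arrays were close together and clear of 0. The mean was 0.43 ± 0.08 (SD, n = 4), a 1.35-fold ratio with a 95% interval of 0.21 to 0.65 (limma adjusted p = 0.0170), and this SD was the smallest of the 8. The call ended without replicate 1, 3 or 4 (adjusted p = 0.0527, 0.0931 and 0.0591). Both spots of its clone were positive on every array, the first at 0.42 to 0.50 and the second at 0.23 to 0.57. They differed most on replicate 1, by 0.27.

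Acly, which supplies acetyl-CoA for both fatty acids and sterols, lies at chr10:85912402-85964605. Its ratios were 0.13, 0.49, 0.41 and 0.20. Replicates 2 and 3 were high and replicates 1 and 4 low, but all were above 0. The mean of 0.31 ± 0.17 (SD, n = 4; 95% interval 0.06 to 0.55) missed the threshold (limma adjusted p = 0.0614). Its spots agreed within 0.04 on every array, against a range of 0.36 between arrays, which holds differences of slide position and array as well as those between rats. With the position surface removed, replicate 3 was at 0.15.

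Gpam, the acyltransferase that opens triglyceride synthesis, lies at chr1:264111599-264176112. Its ratios were -0.28, -0.86, -0.35 and -0.15. Replicate 2 was far lower than the other 3 arrays, on both spots (-0.87 and -0.85). The mean was -0.41 ± 0.31 (SD, n = 4; 95% interval -0.72 to -0.10) and missed the threshold (limma adjusted p = 0.0520), and without replicate 2 it was -0.26 ± 0.10 (SD, n = 3, adjusted p = 0.0537). Gpam was thus below 0 where Me1 and Acly, which serve the preceding steps, were above 0. The ratio of Me1 exceeded that of Gpam by 0.64, 1.39, 0.81 and 0.52 on replicates 1 to 4.

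Lss, which closes the sterol ring system, lies at chr20:12090641-12118230. Its ratios were 0.18, 0.69, 0.36 and 0.47, lowest on replicate 1 and highest on replicate 2. They averaged 0.42 ± 0.21 (SD, n = 4), a 1.34-fold ratio (95% interval 0.16 to 0.69, limma adjusted p = 0.0289). Without replicate 3 or 4 it did not pass (adjusted p = 0.101 and 0.103). Both spots followed the same order and differed by 0.07 at most.

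Cyp51, the demethylase that acts directly after Lss, lies at chr4:30991693-31010147. Its ratios were 0.11, 0.46, 0.11 and 0.44. They fell into a low pair, replicates 1 and 3, and a high pair, replicates 2 and 4. The mean of 0.28 ± 0.20 (SD, n = 4; 95% interval 0.02 to 0.53) did not pass (limma adjusted p = 0.0899). Lss exceeded Cyp51 on every array, by 0.03 to 0.26, but the clones lie on different sides of the slide, and with the position surface described below removed the difference was -0.11, 0.06, -0.04 and -0.32, turned round on replicates 1, 3 and 4.

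Msmo1, the methyl sterol oxidase, lies at chr16:29747113-29764360 and had the largest positive mean of the 8 as centred, though not with the position surface or the block medians removed, where Me1 and Cyp51 were above it. Its ratios were 0.28, 0.91, 0.46 and 0.47. Replicate 2 was again the highest and replicate 1 the lowest. The mean was 0.53 ± 0.27 (SD, n = 4), a 1.44-fold ratio (95% interval 0.24 to 0.82, limma adjusted p = 0.0206), and 0.40 ± 0.11 (SD, n = 3, adjusted p = 0.0180) without replicate 2. The call was lost without replicate 3 or 4 (adjusted p = 0.0683 and 0.0628). Its spots differed by 0.10 at most.

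Nsdhl, the dehydrogenase that takes over from Msmo1, lies at chrX:155817301-155848224 and was printed as a single spot. Its ratios were -0.28, -0.69, -0.23 and -0.39. All were negative, with replicate 2 the lowest. The mean was -0.40 ± 0.20 (SD, n = 4), a 1.32-fold ratio below the pool (95% interval -0.65 to -0.14, limma adjusted p = 0.0342). It missed the threshold without replicate 1, 3 or 4 (adjusted p = 0.0785, 0.0914 and 0.107).

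Hsd17b7, the reductase that completes each round of methyl removal, lies at chr13:84702875-84722810. Its ratios were -1.43, -0.34, -0.25 and -0.45. Replicate 1 stood apart on both spots (-1.50 and -1.36). The mean was -0.62 ± 0.55 (SD, n = 4; 95% interval -1.07 to -0.17, limma adjusted p = 0.0469), the largest in size and the least even of the 8, and without replicate 1 it was -0.35 (adjusted p = 0.0904). Removing replicate 3 or 4 also ended the call, with larger means of -0.74 and -0.67 (adjusted p = 0.0644 and 0.0934). Its spots also agreed least, with a first spot at -0.02 and a second at -0.48 on replicate 3. Over 1591 clones with 2 spots the difference between spots had a median of 0.08, against 0.21 for Hsd17b7 and 0.01 to 0.09 for the other 6 enzymes with 2 spots.

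Along the methyl-removal steps the sign thus changed once, between Msmo1 and Nsdhl. Cyp51 and Msmo1 were positive, and Nsdhl and Hsd17b7 negative. Msmo1 lies in a left block of the slide layout described below, and Nsdhl and Hsd17b7 in right blocks. Msmo1 exceeded Nsdhl by 0.55, 1.60, 0.69 and 0.86 on replicates 1 to 4, a mean difference of 0.93 ± 0.47 (SD, n = 4). It exceeded Hsd17b7 by 1.71, 1.26, 0.71 and 0.93. These differences were not tested. Msmo1 and Lss, by contrast, lay within 0.22 of each other on every array, and so did Me1 and Lss within 0.19. Msmo1 and Lss share a left block, while Me1 lies in a right block. With the position surface removed, Me1 exceeded Lss on every array, by 0.25, 0.07, 0.19 and 0.23.

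Replicate 2 gave the largest ratio in size for 7 of the 8 enzymes, all but Hsd17b7. The same array was the largest for 45.2% of all tested clones and for 35.9% of those called. Its ratios were also the widest, with a median absolute deviation of 0.559 over clones, against 0.259, 0.386 and 0.476 on replicates 1, 3 and 4. With all arrays brought to one spread, 6 of the 8 passed: Acly and Gpam were gained and Hsd17b7, at -0.78, was lost (adjusted p = 0.126). The share of all clones called was also higher in that setting, at 32.4%.

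Ratios also differed by where on the slide a clone was printed, and the enzymes were not spread evenly over it. In a layout inferred from the values (8 square blocks of 31 by 31 spots, in 2 columns), Msmo1 and Lss lay in a left block and the other 6 in right blocks. Clones in left blocks had a median ratio of 0.15 and those in right blocks of -0.16, with 25.4% and 1.38% of them called positive and 8.17% and 22.1% called negative. Me1 was 1 of 17 positive calls among 591 clones of its right block, whose median was -0.15, and 5 clones there had a mean at or above it, itself included. Cyp51 lay in the block with the lowest median, -0.21, where 10 of 584 clones reached its mean and 1 was called positive. Acly was likewise positive in a right block, with 27 of 555 clones at or above it. For Msmo1, 15 of 617 clones in its block reached its mean, and for Lss 53 did. More clones of the same block lay beyond the 3 negative enzymes: 93 of 555 clones in the block of Nsdhl, 84 of 591 in that of Hsd17b7 and 139 of 587 in that of Gpam were as negative or more so. Measured from the block median, Hsd17b7 was at -0.47 and Nsdhl at -0.34, no nearer than Lss at 0.34, and Gpam was nearest at -0.21.

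**Figure D2:**
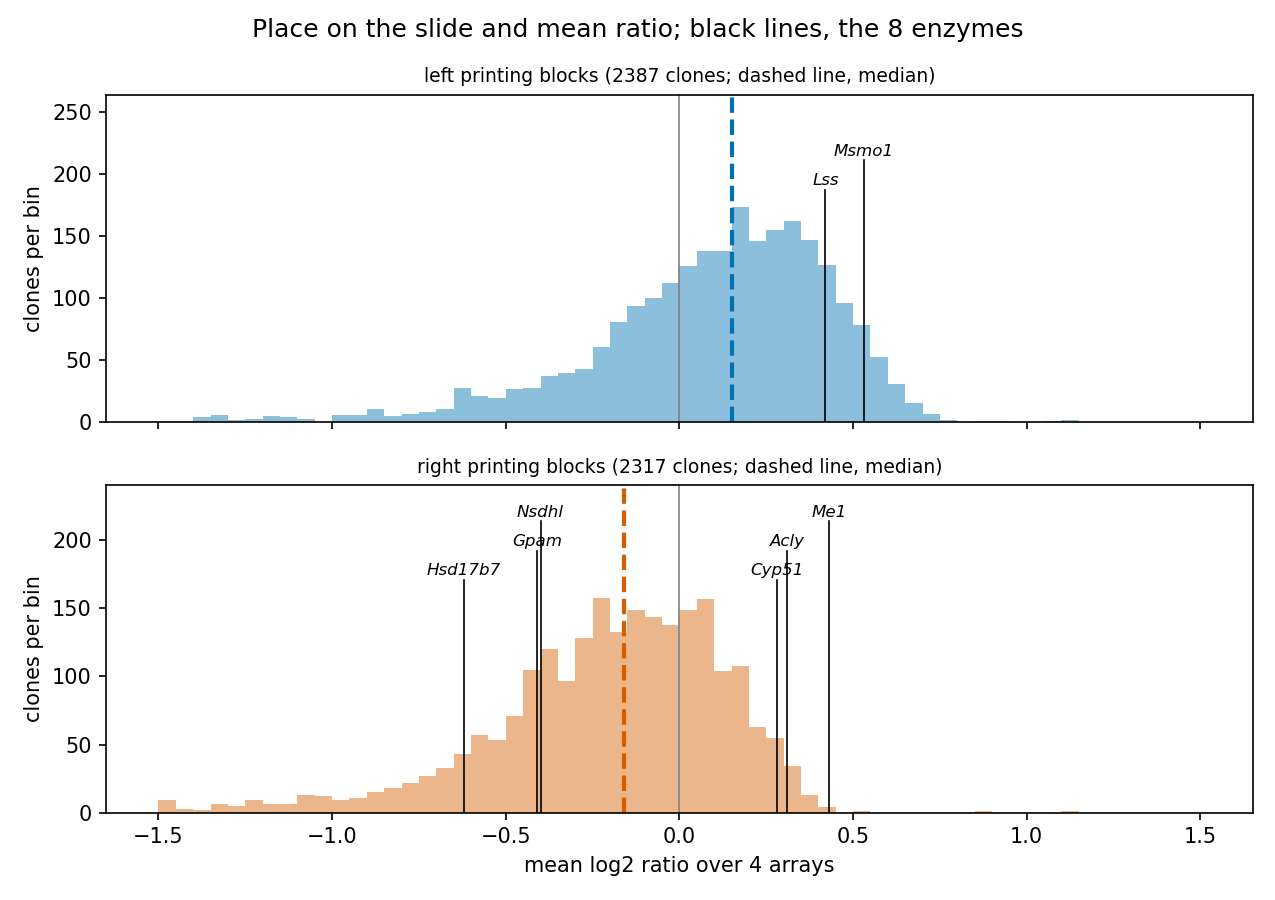
The horizontal axis is the mean log2 ratio over 4 arrays and the vertical axis the number of clones per bin of 0.05, for left (top) and right (bottom) printing blocks of the inferred layout; dashed lines are medians (0.15 and -0.16), black lines are the 8 enzymes, and clones beyond ±1.5 are not drawn. Me1, Acly and Cyp51 stand at the upper edge of the right blocks, while Msmo1 and Lss sit within the broad upper part of the left blocks.

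With a smooth surface over the slide positions subtracted from each array, Me1 alone of the 8 passed, at 0.39 ± 0.11 (SD, n = 4, limma adjusted p = 0.0262), with 14.1% of all clones called (2.83% positive and 11.3% negative). Its ratios were then 0.32, 0.55, 0.35 and 0.34. Cyp51 became 0.31 ± 0.14 (adjusted p = 0.0548), slightly larger than with the surface. Msmo1 and Lss went to 0.27 ± 0.25 and 0.21 ± 0.19 (adjusted p = 0.119 and 0.152), about 0.26 and 0.22 below their values with the surface. Acly was at 0.20 ± 0.16 (adjusted p = 0.139), Gpam at -0.29 ± 0.26 (0.115), Nsdhl at -0.30 ± 0.15 (0.0591) and Hsd17b7 at -0.57 ± 0.58 (0.107). Every one of the 8 kept its sign on every array. Msmo1 still exceeded Nsdhl on each array, by 0.34, 1.16, 0.47 and 0.33. With the median of each block subtracted instead, Me1 (0.56), Cyp51 (0.46), Acly (0.34) and Nsdhl (-0.36) passed (adjusted p = 0.0104, 0.0294, 0.0384 and 0.0483), where 21.3% of all clones were called, and Msmo1 (0.41), Lss (0.31), Hsd17b7 (-0.49) and Gpam (-0.23) did not.

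**Figure D3:**
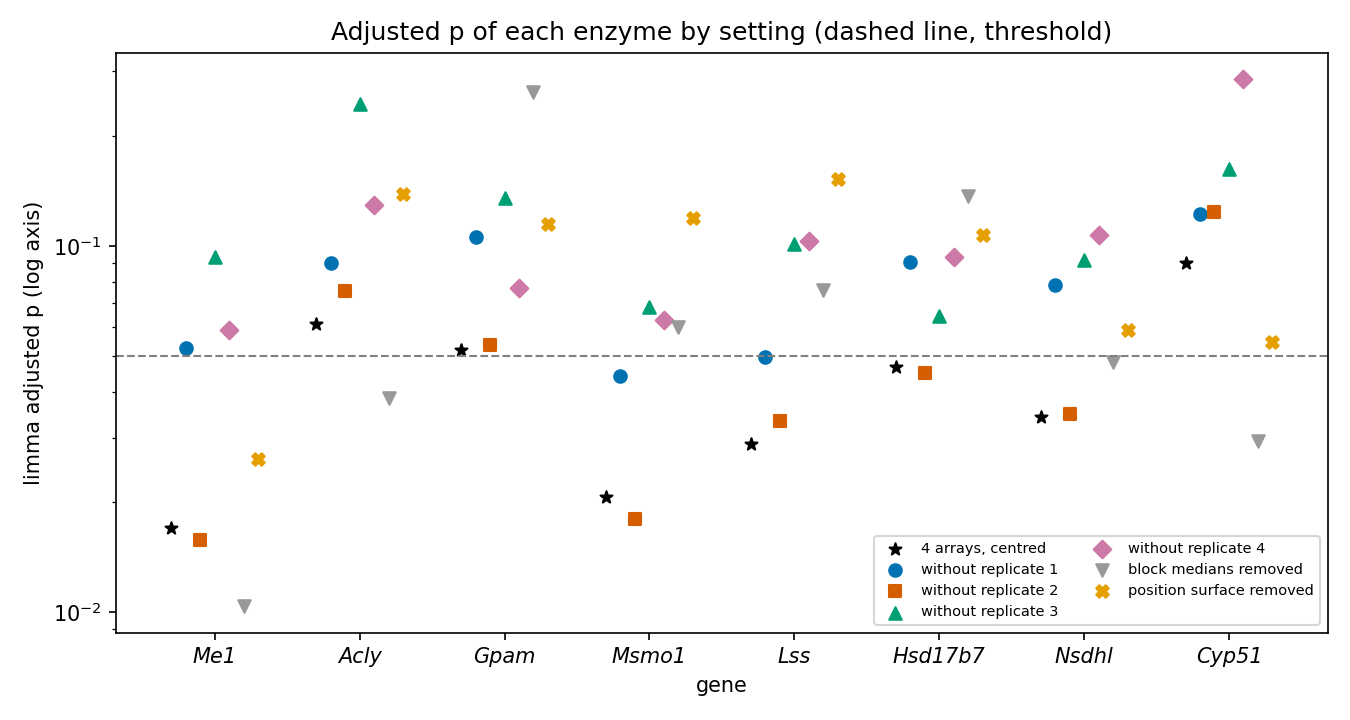
The vertical axis is the limma adjusted p on a log axis and the horizontal axis the 8 genes; each symbol is 1 setting (4 arrays as centred, each array left out, or a position correction) and the dashed line is the threshold of 0.05. Me1 lies below the line as centred (0.0170), without replicate 2 (0.0158) and under both position corrections (0.0104 and 0.0262), and no enzyme lies below it without replicate 3 or 4.

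Of 23 tested clones for other genes of the same pathways, 4 passed (17.4%, against 28.6% of all clones), 2 in each direction. The list counts that follow include the 8 enzymes. Of 24 listed genes of fatty acid synthesis and NADPH supply, 7 were measured; all 7 had a positive mean and Me1 alone passed, with a median of 0.16 against -0.01 over all clones. Fasn, the fatty acid synthase, was at 0.24 ± 0.27 (SD, n = 4, limma adjusted p = 0.171), with 0.27, -0.09, 0.23 and 0.56 on replicates 1 to 4. Without the position surface the median of the 7 was 0.01 and Fasn was at 0.01. In glycerolipid synthesis 2 of 20 listed genes were tested. Beside Gpam this was Cds1, which makes CDP-diacylglycerol for phospholipids, at 0.35, 0.77, 0.42 and 0.59. Its mean of 0.53 ± 0.19 passed (SD, n = 4, limma adjusted p = 0.0137), but not without the surface (0.28 ± 0.21, adjusted p = 0.0938) or without replicate 4 (adjusted p = 0.0557).

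Of 22 listed sterol synthesis genes 13 were tested, with 3 positive, 2 negative and 8 not called and a median of 0.02. Over all clones 28.6% were called. Without the enzymes of this report, which were chosen with earlier results known, 8 tested genes remained, 1 positive and 7 not called. The one call outside the 8 enzymes was Mvk, mevalonate kinase near the start of the pathway, at 0.33, 0.44, 0.16 and 0.60 and a mean of 0.38 ± 0.19 (SD, n = 4, limma adjusted p = 0.0349). Mvd, the mevalonate diphosphate decarboxylase that follows, was at -0.30 ± 0.21 and missed the threshold (adjusted p = 0.0801). The call of Mvk held without replicate 2 (adjusted p = 0.0401) and ended without each other array (adjusted p up to 0.149). Without the surface the calls changed places: Mvk was at 0.16 ± 0.20 (adjusted p = 0.260) and Mvd passed at -0.35 ± 0.14 (adjusted p = 0.0399), the single call among the 13.

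**Figure D4:**
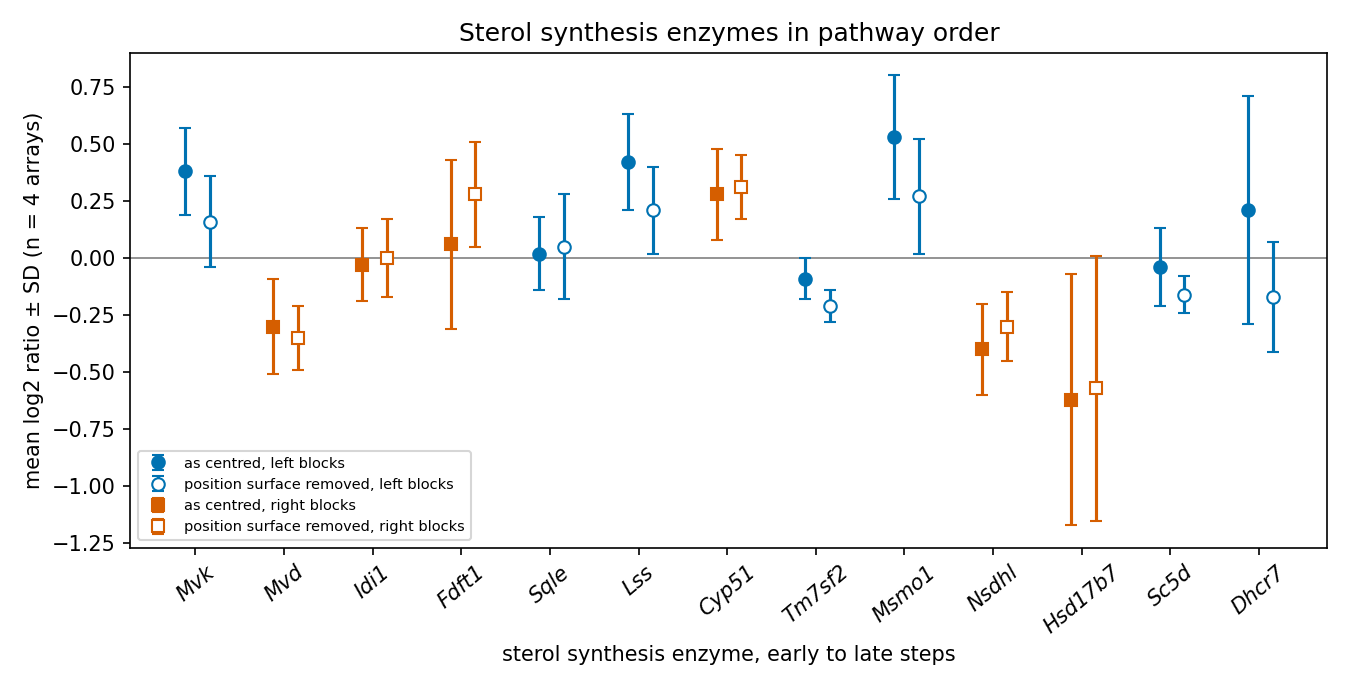
The vertical axis is the mean log2 ratio ± SD over 4 arrays for the 13 sterol synthesis genes tested, in order of their steps along the horizontal axis; filled symbols are values as centred, open symbols have the position surface removed, circles are left blocks and squares right blocks. Cyp51 is almost the same in both versions (0.28 and 0.31), Lss and Msmo1 move towards 0, and Nsdhl and Hsd17b7 stay below 0.

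Of 26 listed regulators and carriers of sterols and lipids 9 were tested, with none called positive, 2 negative and 7 not called. The share called was not above the 28.6% of all clones, and 6 of the 9 had a positive mean, with a median of 0.05. Nr1h2, which encodes the oxysterol receptor LXRβ, had ratios of -0.80, -1.73, -1.09 and -1.15, on each array below all 8 enzymes, except for Hsd17b7 on replicate 1. Its mean was -1.19 ± 0.39 (SD, n = 4, limma adjusted p = 0.00419), and -1.40 ± 0.33 without the surface (adjusted p = 0.00392). Npc2, a carrier that moves cholesterol out of lysosomes, was even over the arrays at -0.53, -0.59, -0.44 and -0.57. Its mean of -0.53 ± 0.07 passed (SD, n = 4, limma adjusted p = 0.00935), also without the surface (-0.38 ± 0.12, adjusted p = 0.0303). Both calls held without each array in turn. Scarb1, the high-density lipoprotein receptor, had the smallest p among the positive ratios, at 0.23 ± 0.21 (adjusted p = 0.155).

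The genes with ratios closest to 3 of the enzymes were found by Euclidean distance over the 4 arrays among 2706 other clones with 1 symbol. Lrrc28 and Tnfrsf1b lay nearest to Me1, at distances of 0.0976 and 0.0997 against a median of 0.988. Nuak2 and Exog lay nearest to Cyp51 (0.051 and 0.0606), and Hibadh and Bgn to Nsdhl (0.132 and 0.144). The neighbours of Me1 and Cyp51 were all printed in left blocks, while those of Nsdhl were printed in right blocks like Nsdhl itself. With 4 arrays and this many clones, close neighbours arise readily, and no shared function is read from them.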

How the data were processed

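The table as deposited by the authors holds log10 ratios of the 2 channels, 1 per spot and array, and how they were scaled before deposit is not stated. The unit was read from the values: taken as powers of 10 and multiplied to thousandths, at least 99.99% of spots on each array were whole within 0.02. The scanner and any background step are likewise not stated. The most repeated value of each array (1171 to 1189 of 7688 spots) was taken as a missing ratio, which left 6499 to 6517 measured spots. No intensities were at hand, so the number of arrays limits the precision and dim spots could not be singled out.

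Values were converted to log2, spots of 1 listed clone averaged, each of 2436 unlisted spots kept as a row, and arrays centred on their median (shifts of -0.0786 to 0.0262). Names come from an older platform annotation, updated by Entrez number to GRCr8 for 5140 of 5252 listed probes; 5169 had 1 symbol and 83 several. Clone sequences were not checked. The 4704 rows with a value on all 4 arrays, called clones, were fitted in R 4.3.3 with limma 3.58.1 (lmFit, eBayes; mean against 0, two-sided). The pool counts as 1 control sample. The labels say each array holds 1 of the 4 rats without numbering them; should 2 arrays share a rat, the p-values cover technical spread. Replicate numbers only name arrays.

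On simulated ratios for this comparison (4704 rows, 4 arrays), 100 rows were shifted by 1 (log2), 100 by 0.5 and 4504 not at all. The fit called 98.0%, 29.0% and 0.311% of these. The simulated noise was independent between rows, without an effect of slide position, and far fewer rows were shifted than were called in the data. These percentages therefore do not give the power or the rate of false calls on these arrays. The position surface is a robust loess (span 0.05, degree 1, 4 iterations) over the inferred layout. Alternatives were no centring, quantile normalization, the surface, block medians, other row units, a minimum of 3 or of 2 arrays per row, array weights, a robust prior, no moderation and each array left out; one spread for all arrays, and the surface without replicate 2, were added after seeing the data. The enzymes, pathway and marker lists, motifs, tests and alternatives were chosen with earlier results of these data known. Named were the 8 enzymes, from each list without them the 2 called clones of each sign with the smallest p (or, with none called, the 1 with the smallest p), and the 2 nearest genes of Me1, Cyp51 and Nsdhl. Genes named from the marker lists are all their tested members other than the hepatocyte ones not called. Tm7sf2 was named after its values were seen, for its place between Cyp51 and Msmo1.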

Additional observations from a re-analysis of the deposited data

Results flagged for a closer look

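Hsd17b7 on replicate 1 had a log2 ratio of -1.43, far from the other 3 arrays (-0.34, -0.25 and -0.45). The gap to the nearest of them, as a share of the whole range, was 0.83, barely above Dixon's critical value at 95%. Both spots of the clone were low on that array, at -1.50 and -1.36. Over all 4704 clones, 401 (8.52%) had an array that far from the rest, where chance would give about 5%. The mean of Hsd17b7 without replicate 1 is given above.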

How the results depend on the processing

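None of the 8 enzymes changed the sign of its mean under any alternative, in 143 fitted values. Each enzyme had 1 sign on all 4 arrays, so settings that only leave out or weight arrays, or change the test, could not turn a mean. The count of 143 is therefore no measure of stability. The number of enzymes past the threshold was 5 as reported. It was 1 with the position surface removed (Me1, with 665 of all 4704 rows called). With the surface removed and without replicate 2 it was 2 (Me1 and Nsdhl, with 1060 of 4718 rows called). With every spot a row it was 10 of 15, with 1848 of all 6370 rows called. It was 0 with an unmoderated statistic (10 of 4704 rows called), where 5 of the 8 and 1612 of all rows had an unadjusted p under 0.05. Leaving out 1 array gave 0 to 5. In the other settings 4 to 7 passed. The 7 came with one row per gene (892 of all 2644 rows called) and with array weights (2359 of 4704). The 4 came with block medians removed (1004 of 4704) and with a minimum of 3 or of 2 arrays (1337 of 4779 and 1304 of 4824). Calls over all clones were 1344 as reported, 665 without the surface, 892 of 2644 with one row per gene, 2359 with array weights, 10 without moderation and 422 to 1767 with 1 array left out. Positive calls were 47.5% of all calls as reported, against 20.0% without the surface, and 23.5% and 27.5% without replicates 3 and 4. Of the 31 pathway list clones 9 passed as reported, 4 without the surface, 18 of 58 with every spot a row, 14 with array weights, 0 without moderation and 2 to 12 with 1 array left out. Counting both spots where each was a row, Me1 kept its call in 14 of 18 alternative values (adjusted p up to 0.0931), Msmo1 and Lss in 12 of 18 each, Nsdhl in 12 of 17 and Hsd17b7 in 6 of 18. Gpam gained one in 7, Acly in 5 and Cyp51 in 1. The cause of these changes was not tested. Some settings have fewer arrays or rows by construction, and the part of this was not tested either. No paired analysis was possible because there is 1 group, set against 1 pool. A miss at this number of arrays does not show that an enzyme did not differ. Simulated shifts of 0.5, above the size of most of these means, were called in 29.0% of rows. That simulation had few shifted rows and no position effect, so the percentage is not the power on these arrays.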

Other observations

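Several other genes of fat and sterol synthesis were positive on all arrays but replicate 2, and are named here after their values were seen. Idh1, a cytosolic source of NADPH, had log2 ratios of 0.18, -0.72, 0.32 and 0.59 on replicates 1 to 4. Dhcr7, a reductase of the last steps to cholesterol, had 0.22, -0.49, 0.45 and 0.65, and Scd2, a fatty acid desaturase, 0.17, -0.53, 0.18 and 0.49. Without replicate 2, Idh1 was at 0.36 ± 0.21 (SD, n = 3, limma adjusted p = 0.0373), Dhcr7 at 0.44 ± 0.22 (adjusted p = 0.0235) and Fasn at 0.35 ± 0.18 (adjusted p = 0.0350), all past the threshold, and Scd2 at 0.28 ± 0.18 (adjusted p = 0.0651). Of all clones, 37.5% were called in that setting. Because these genes were picked by their sign on replicate 2, leaving it out raises their means by construction. All 4 clones lie in left blocks, and with the position surface also removed they were at -0.04, -0.06, 0.07 and 0.01 for Idh1, Dhcr7, Fasn and Scd2. Replicate 2 alone had the opposite sign in 6 of the 31 pathway list clones (19.4%) and in 19.5% of all tested clones. Each of the other arrays did so in 3.19% to 6.40% of all tested clones. Replicate 2 did so in none of the 8 enzymes, which were chosen with earlier results of these data known.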
